A study of Mus musculus with 16 samples.

Results

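Schwann cell and peripheral myelin genes were described in the bladder of MAT (mature) and AGED mice. They are 32 genes listed by their known roles in peripheral nerve. The list sets no limit on how a gene changed, but it was drawn up with earlier results of these data known. All 32 had a probe on the array, and 29 passed the filter on dim probes and were tested among 26781 genes. By role they comprise 5 compact myelin proteins, 8 genes of non-compact myelin, the node and the periaxin complex, 2 enzymes of myelin lipids, 6 Schwann cell regulators and markers, 5 genes of non-myelinating and immature glia, and 6 axonal genes. RNA of the dissected bladder body of C57BL/6 mice was labelled with 1 dye and hybridized to Agilent SurePrint G3 arrays, each mouse on its own array. The groups were 4 MAT males and 4 MAT females, 12 months old, and 4 AGED males and 4 AGED females, 27 to 30 months old. No group carried a drug, a transgene or a deletion according to the labels. The bladder body holds urothelium, detrusor muscle, vessels and nerves together, and in such bulk tissue fewer cells of a type cannot be told apart from less RNA per cell.

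Peripheral axons run with Schwann cells. Myelinating Schwann cells wrap a single large axon in compacted membrane, held together by proteins such as myelin basic protein and crossed by channels in the non-compact regions, whereas non-myelinating Schwann cells ensheath bundles of thin axons without forming myelin. In the bladder wall most fibres are thin autonomic and sensory fibres, and the cell bodies of these neurons lie mainly in ganglia outside it. Sox10 keeps the lineage, Pou3f1 and Egr2 drive entry into myelination, and Erbb3 receives the axonal neuregulin signal.

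The stretches just upstream of 6 members are shown as examples of the array order described further on. Foxd3, Gldn, S100b and Tubb3 were lower on every AGED than on every MAT female array, and Prx and Cnp were not. Gldn, Prx and Cnp all belong to the group of non-compact myelin, the node and the periaxin complex. Each line holds the 250 bases before the annotated start, 5′ to 3′ on the forward strand, from RefSeq (GRCm38.p6). The stretches are Foxd3 at chr4:99656049-99656298, Gldn at chr9:54286236-54286485, S100b at chr10:76253586-76253835, Tubb3 at chr8:123411303-123411552, Prx at chr7:27499074-27499323 and Cnp at chr11:100574689-100574938. Capitals mark matches to a SOX core (ACAAAG), an EGR core (GCGTGGG), an octamer core (ATGCAAA) or an E-box (CACGTG), searched on both strands.
Foxd3: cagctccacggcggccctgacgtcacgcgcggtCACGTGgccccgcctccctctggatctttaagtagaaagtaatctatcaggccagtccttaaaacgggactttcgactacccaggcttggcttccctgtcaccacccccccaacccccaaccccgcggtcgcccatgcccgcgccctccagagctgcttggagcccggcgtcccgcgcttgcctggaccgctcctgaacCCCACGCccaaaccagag
Gldn: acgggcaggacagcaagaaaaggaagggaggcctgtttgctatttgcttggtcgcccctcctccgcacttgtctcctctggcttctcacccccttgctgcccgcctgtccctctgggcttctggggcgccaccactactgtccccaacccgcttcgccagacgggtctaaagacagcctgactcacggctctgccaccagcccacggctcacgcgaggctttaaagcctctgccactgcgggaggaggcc
S100b: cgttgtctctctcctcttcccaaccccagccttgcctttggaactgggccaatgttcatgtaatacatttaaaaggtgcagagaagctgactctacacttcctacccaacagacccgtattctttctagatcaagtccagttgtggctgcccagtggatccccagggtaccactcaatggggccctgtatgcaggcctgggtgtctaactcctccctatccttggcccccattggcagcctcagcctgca
Tubb3: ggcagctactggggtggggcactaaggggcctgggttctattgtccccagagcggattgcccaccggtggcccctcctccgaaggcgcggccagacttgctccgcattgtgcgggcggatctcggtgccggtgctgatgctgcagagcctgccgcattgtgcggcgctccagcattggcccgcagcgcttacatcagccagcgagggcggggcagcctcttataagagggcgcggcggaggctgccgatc
Prx: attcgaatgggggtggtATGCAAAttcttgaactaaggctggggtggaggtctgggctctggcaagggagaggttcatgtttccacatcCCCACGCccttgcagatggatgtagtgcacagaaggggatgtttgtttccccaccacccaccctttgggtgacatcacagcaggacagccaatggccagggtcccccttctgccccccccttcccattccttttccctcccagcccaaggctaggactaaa
Cnp: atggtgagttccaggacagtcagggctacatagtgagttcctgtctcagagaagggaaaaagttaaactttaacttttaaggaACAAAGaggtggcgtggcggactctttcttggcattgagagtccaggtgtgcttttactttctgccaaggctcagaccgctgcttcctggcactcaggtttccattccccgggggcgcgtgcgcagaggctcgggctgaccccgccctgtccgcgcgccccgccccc

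Over the 250 bases before to 50 after the start, the SOX core was found in 18.7% of all 32851 promoters of the table, the EGR core in 5.04%, the octamer core in 4.63% and the E-box in 7.15%. Of the 32 members, 19 had a promoter in the table, with 31 entries in all. The shares over all promoters count entries. Of the 31 member entries, 3 held the SOX core, 5 the EGR core, 5 the octamer core and 2 the E-box. Among these 19 genes, the SOX core was found for Cnp and Mag, the EGR core for Foxd3, Ncmap, Prx, Cnp and Scn7a, the octamer core for Prx, Egr2 and Scn7a, and the E-box for Foxd3 and Egr2. Foxd3 held an E-box and an EGR core, and Prx an EGR core and an octamer core. Cnp held a SOX core, and an EGR core within the 50 bases after the start that are not shown. Gldn, S100b and Tubb3 held none of these letters in the window. No match overlapped another in the 6 promoters shown. The matches describe the letters only.

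Signals are given as log2 values relative to the 75th percentile of their array, so a level of 0 is that percentile, and levels of different genes are not compared. The call required both a 2-fold change and an adjusted p under 0.05 (limma, Benjamini-Hochberg over all genes tested). Between 52.4% and 68.3% of the probes were well above background on an array, with the lowest share on AGED male replicate 1. All female arrays lay on 1 slide and all male arrays on another, so sex and slide cannot be told apart. On both slides MAT arrays lay in row 1 and AGED arrays in row 2, so age and row cannot be told apart either. Every age change follows the deposited label of each array. The study's own list of its most changed genes gives Chil3, Mmp3, S100a9 and Defb50 as lower and AI593442 and Kcnj5 as higher with age. On the arrays labelled AGED male the first 4 were called higher, with Chil3 at a log2 change of 5.68, AI593442 was called lower, and Kcnj5 changed by -1.83 (adjusted p = 0.107). These directions are opposite to the study's. Over all genes tested, 74 were called higher and 154 lower on the arrays labelled AGED male, and 48 higher and 3 lower on those labelled AGED female. The study's counts of changed genes lean the same ways as these, and which direction is right was not settled here. MAT and AGED therefore stand for the labels throughout.

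None of the 29 tested members was called between AGED and MAT mice of either sex, where 0.851% of all genes were called in males and 0.19% in females. None was called in the difference of the age changes between the sexes (0.149% of all genes) or between the sexes in MAT mice (0.164%) or AGED mice (3.11%). At an unadjusted p under 0.05, limma passed 5 members in males (16.2% of all genes passed), 6 in females (10.5%), 0 in the difference (9.87%), 5 between MAT males and females (14%) and 4 between AGED males and females (26.2%). The fitted change was lower with age for 20 of 29 members in males and for 21 of 29 in females, against 49.8% and 50.9% of all genes. The median log2 change of the members was -0.14 in males and -0.12 in females, beside 0.0015 and -0.0063 over all genes tested. The members share arrays and in part cells, so these counts carry no test.

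**Figure D1:**
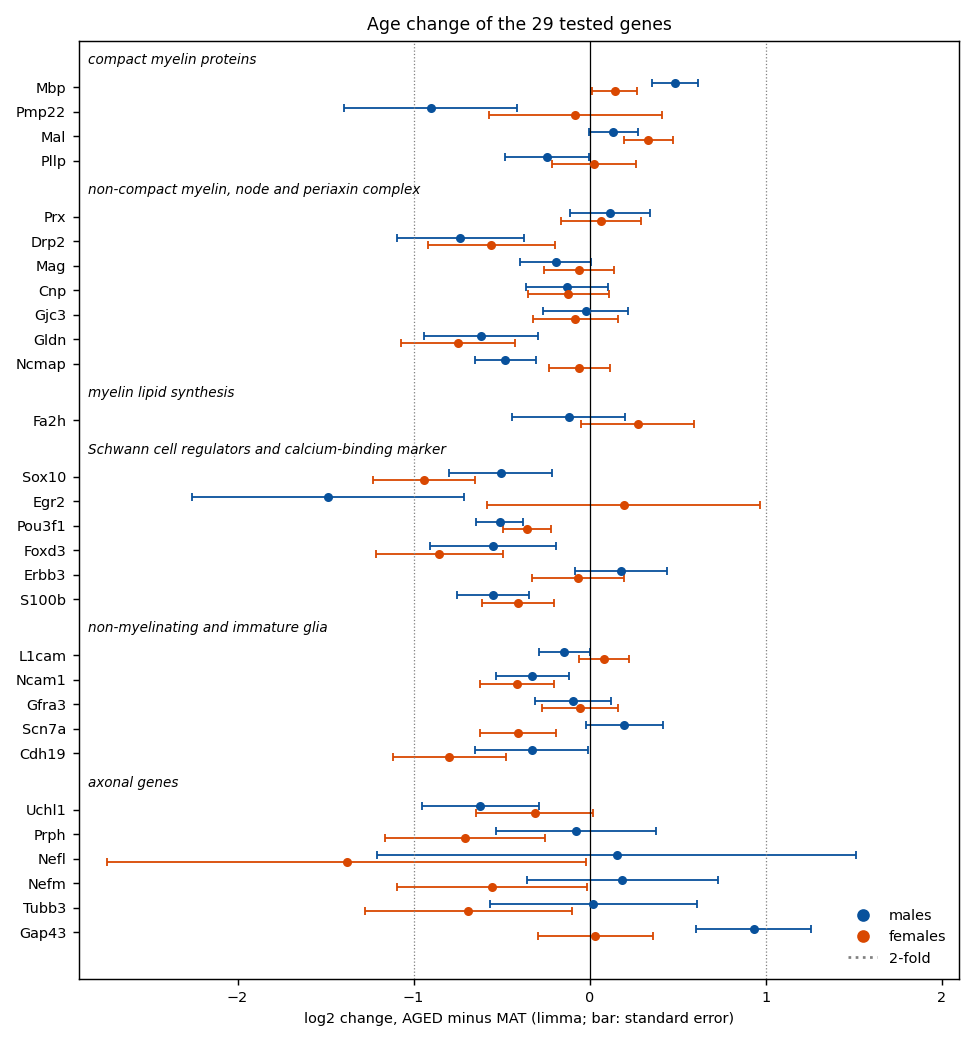
Fitted log2 change (AGED minus MAT) of the 29 tested genes, by role, in males (blue) and females (orange), with the standard error of the limma fit as bars and dotted lines at a 2-fold change. Most points lie left of 0, with regulators between -0.94 and 0.19 in females, and the widest bars belong to Nefl and Egr2.

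A different count came from the order of the arrays. In females, 9 of 29 members (31.0%) had every AGED array below every MAT array, where 5.78% of all genes did, and 0 members had every AGED array above (5.04% of all genes). The 9 were Sox10, Pou3f1, Foxd3, S100b, Cdh19, Gldn, Nefl, Nefm and Tubb3. In males 1 member, Pou3f1, had every AGED array below every MAT array and 1, Mbp, every AGED array above, where 3.91% of all genes did in each direction. By role, the female count was 4 of 6 regulators and markers, 3 of 6 axonal genes, 1 of 5 genes of non-myelinating and immature glia, and 1 of 12 genes of the 3 myelin groups. The median log2 change in females was -0.06 over the 12 myelin genes, -0.38 over the regulators, -0.41 over the non-myelinating and immature glia and -0.62 over the axonal genes. In males these medians were -0.16, -0.53, -0.14 and 0.09. The male axonal median turned sign with single arrays, from -0.43 without MAT male replicate 2 to 0.65 without AGED male replicate 3. It was also below 0 without MAT male replicate 3 (-0.14), AGED male replicate 2 (-0.40) or AGED male replicate 4 (-0.26). When each array was left out, the male median of the non-myelinating and immature glia ran from -0.28 without AGED male replicate 2 to -0.0056 without AGED male replicate 3, and that of the regulators from -0.74 to -0.38. The female medians ran from -0.71 to -0.44 for the axonal genes, from -0.48 to -0.26 for the non-myelinating and immature glia and from -0.41 to -0.33 for the regulators. No test compares the roles.

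**Figure D2:**
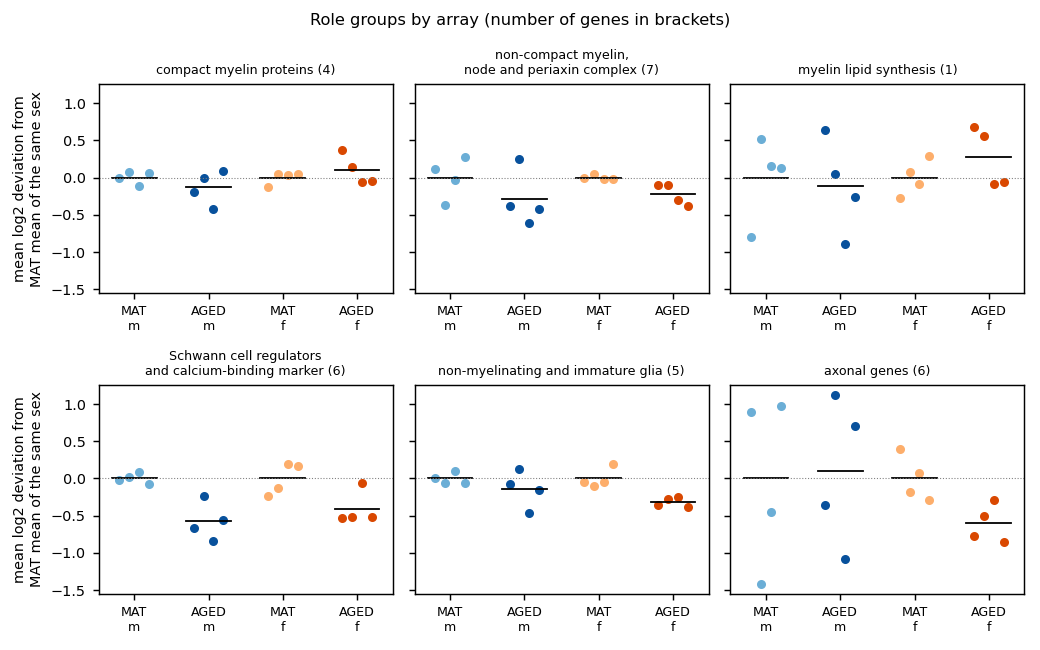
Mean log2 deviation of each role group on each array from the mean of the MAT arrays of the same sex. Each point is 1 array, m stands for males, f for females, and the black lines are group means. The AGED female points lie below 0 for the regulators, the non-myelinating glia and the axonal genes, and the male points of the axonal genes are spread over more than 2 log2 units. For the regulators AGED female replicate 3 (-0.06) lies within the MAT female points (-0.23 to 0.20). For the axonal genes AGED female replicate 3 (-0.290) lies next to MAT female replicate 4 (-0.286).

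Of the compact myelin proteins, 4 of 5 were tested and none fell or rose at the threshold. Mbp, the myelin basic protein that holds the inner membrane faces together, had log2 signals of 3.88, 3.62, 3.65 and 3.82 on the MAT male arrays and 4.05, 4.11, 4.56 and 4.20 on the AGED male arrays. All AGED male arrays were above all MAT male arrays. The log2 change was 0.48 ± 0.13 (SE, adjusted p = 0.0751), a 1.4-fold difference. In females Mbp was 3.50 ± 0.09 (SD, n = 4) in MAT and 3.65 ± 0.16 (SD, n = 4) in AGED mice, a change of 0.14 ± 0.13 (SE, adjusted p = 0.771). The age change differed between the sexes by 0.34 ± 0.18 (SE, adjusted p = 0.577). The array holds 3 Mbp probes, and they disagreed in males. The probe given above is matched to 1 transcript of the locus, and the other 2 are both matched to another. Which form of the protein each transcript encodes was not examined, so the values above stand for that 1 probe. The other 2, both dimmer, changed by -1.08 ± 0.55 and 0.00 ± 0.26 (SE), and the mean of the 3 changed by -0.20.

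Mal, a proteolipid of myelin that epithelial cells also make, had log2 signals of 5.50, 5.70, 5.80 and 5.87 on the MAT female arrays and 6.28, 6.21, 5.71 and 5.99 on the AGED female arrays. AGED female replicate 3 lay within the MAT range and the other 3 above it. The change of 0.33 ± 0.14 (SE, adjusted p = 0.421) was the only one of the 6 lowest p-values in females that pointed upward, and in males it was 0.13 ± 0.14. Pmp22, a tetraspan protein of compact myelin, had log2 signals of 3.77, 4.40, 3.94 and 4.13 on the MAT male arrays and 3.88, 3.92, 0.96 and 3.86 on the AGED male arrays. AGED male replicate 3 alone was low, and the change of -0.90 ± 0.49 (SE, adjusted p = 0.378) became -0.17 without it. A second, dimmer Pmp22 probe read between 0.74 and 1.29 on the AGED male arrays and changed by 0.33 ± 0.24 (SE), the opposite sign. In females Pmp22 changed by -0.08 ± 0.49 (SE). Pllp, the proteolipid plasmolipin, changed by -0.24 ± 0.24 in males and 0.02 ± 0.24 (SE) in females. Pmp2, the fatty acid carrier of peripheral myelin, was well above background on no array.

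Among the genes of non-compact myelin, the node and the periaxin complex, 6 of 7 tested members had a lower fitted level in AGED mice of each sex, and none passed the test. Gldn, gliomedin, which gathers sodium channels at the node of Ranvier, had log2 signals of -3.996, -4.13, -4.08 and -4.14 on the MAT female arrays and -4.30, -4.65, -5.39 and -5.00 on the AGED female arrays. The SD of the MAT female arrays was 0.07, and every AGED female array was lower. The change was -0.75 ± 0.32 (SE, adjusted p = 0.435) in females and -0.61 ± 0.32 (SE, adjusted p = 0.362) in males, where Gldn was well above background on 2 of the 4 AGED arrays. Drp2, the dystrophin-related protein bound to periaxin, changed by -0.73 ± 0.36 in males and -0.56 ± 0.36 (SE) in females. Its second probe changed by 0.34 ± 0.41 in males and -0.42 ± 0.41 (SE) in females, so the male direction depends on the probe, and on the second every AGED female array was below every MAT female array.

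Ncmap, a protein of non-compact myelin, had log2 signals of 3.08, 2.76, 2.64 and 2.86 on the MAT male arrays and 2.05, 2.75, 2.41 and 2.21 on the AGED male arrays. AGED male replicate 2 alone lay within the MAT range. The change was -0.48 ± 0.17 (SE, adjusted p = 0.184) in males and -0.06 ± 0.17 (SE, adjusted p = 0.954) in females, and the difference between the sexes was -0.42 ± 0.24 (SE, adjusted p = 0.619). With normexp background correction the male change was -1.47 (adjusted p = 0.000286) and was called, whereas its second probe changed by 0.08 ± 0.18 (SE). Prx, periaxin itself, changed by 0.11 ± 0.23 in males and 0.06 ± 0.23 in females. Mag, the adhesion molecule facing the axon, changed by -0.19 ± 0.20 and -0.06 ± 0.20, Cnp, an enzyme of the myelin cytoplasm, by -0.13 ± 0.23 and -0.12 ± 0.23, and Gjc3, a Schwann cell connexin, by -0.02 ± 0.24 and -0.08 ± 0.24 (male and female log2 changes ± SE). For these 4 the standard errors, 0.20 to 0.24, were larger than the changes in each sex. Cldn19, a claudin of Schwann cell junctions, was well above background on 2 of 16 arrays, AGED male replicate 1 and AGED female replicate 3, and was not tested.

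Of the enzymes of myelin lipids, Fa2h, which hydroxylates the fatty acids of galactolipids, changed by -0.12 ± 0.32 in males and 0.27 ± 0.32 (SE) in females. Its signal varied from 1.90 to 3.22 on the MAT male arrays and from 1.80 to 3.33 on the AGED male arrays. Ugt8a, which makes galactosylceramide, was well above background on no array. Cholesterol synthesis, which supplies myelin membrane but runs in every cell, was taken as a further list. Its 10 genes all had a higher fitted level in AGED mice of both sexes, with medians of 0.39 in males and 0.45 in females, and none was called. Srebf2, its transcriptional regulator, had the lowest p in males (0.46 ± 0.12, SE, adjusted p = 0.078), and Fdps, an enzyme of the pathway, in females (0.44 ± 0.18, SE, adjusted p = 0.41).

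The Schwann cell regulators and markers were lower with age in 5 of 6 cases in each sex, without passing the test. Sox10, the transcription factor that maintains Schwann cell identity, had log2 signals of -0.68, -0.70, -0.58 and -0.32 on the MAT female arrays and -1.86, -1.44, -0.76 and -1.97 on the AGED female arrays. The groups did not overlap, and AGED female replicate 3 lay nearest to the MAT arrays. The change was -0.94 ± 0.29 (SE, adjusted p = 0.267), a 1.92-fold lower level, and the lowest p of the members in females. On the male arrays Sox10 read -0.44, -1.47, -1.02 and -0.62 in MAT and -1.90, -0.79, -1.61 and -1.26 in AGED mice, and these overlapped (-0.51 ± 0.29, SE, adjusted p = 0.407).

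Pou3f1, the POU-domain factor of the promyelinating stage, was the member whose arrays were apart in both sexes. It read -2.12, -2.11, -2.23 and -1.91 on the MAT male arrays and -2.94, -2.45, -2.50 and -2.53 on the AGED male arrays. On the female arrays it read -2.28, -2.43, -2.42 and -2.55 in MAT and -2.74, -2.65, -2.66 and -3.05 in AGED mice. The gap between the groups was 0.11 in females and 0.21 in males. The changes were -0.51 ± 0.14 (SE, adjusted p = 0.0729) in males and -0.36 ± 0.14 (SE, adjusted p = 0.38) in females, both under 2-fold. The exact two-sided permutation p was 0.0286 in each sex, the smallest that 4 arrays against 4 allow.

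Foxd3, a neural crest and glial precursor factor, had log2 signals of -3.21, -2.63, -2.75 and -2.92 on the MAT female arrays and -3.79, -4.04, -3.63 and -3.46 on the AGED female arrays. Each AGED female array was lower, with a change of -0.85 ± 0.36 (SE, adjusted p = 0.422). On the male arrays Foxd3 spread from -3.99 to -1.96 in MAT and from -3.92 to -2.65 in AGED mice, and overlapped. S100b, the calcium-binding protein used to stain Schwann cells, read 1.13, 0.91, 0.78 and 1.05 on the MAT female arrays and 0.71, 0.39, 0.63 and 0.49 on the AGED female arrays. It read 1.10, 0.63, 1.13 and 0.86 on the MAT male arrays and 0.07, 1.08, -0.01 and 0.37 on the AGED male arrays, where AGED male replicate 2 alone was within the MAT range. The changes of S100b were -0.41 ± 0.20 (SE, adjusted p = 0.51) in females and -0.55 ± 0.20 (SE, adjusted p = 0.196) in males. Erbb3, the neuregulin receptor, which epithelial cells also make, changed by 0.18 ± 0.26 in males and -0.07 ± 0.26 (SE) in females.

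**Figure D3:**
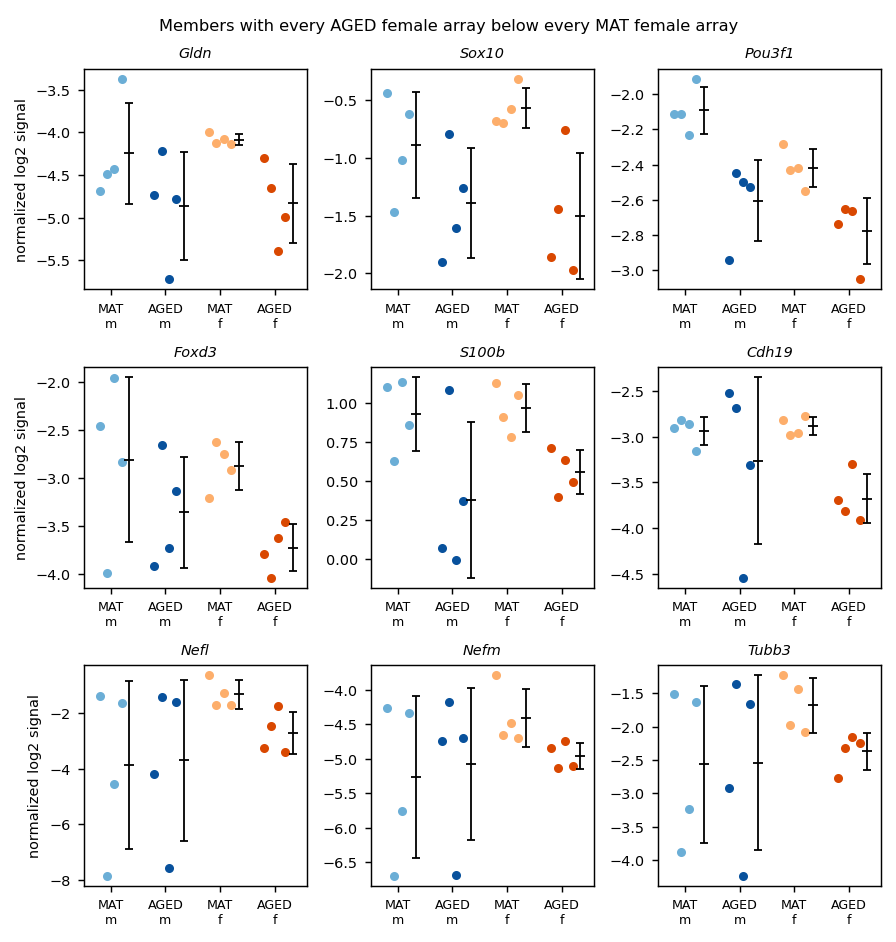
Normalised log2 signal of the 9 members with every AGED female array below every MAT female array. Each point is 1 array (m for males, f for females), and the bars give the mean and SD of each group (n = 4). The female groups are apart in every panel, and in males they are apart for Pou3f1 alone.

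Egr2, the zinc-finger factor that turns on myelin genes, had log2 signals of -1.64, 2.70, -0.39 and -0.89 on the MAT male arrays and -0.80, -1.58, -2.33 and -1.46 on the AGED male arrays. MAT male replicate 2 stood above all other arrays of the series. The male change was -1.49 ± 0.77 (SE, adjusted p = 0.357), the female change 0.19 ± 0.77 (SE, adjusted p = 0.965), and the difference -1.68 ± 1.10 (SE, adjusted p = 0.672). Without MAT male replicate 2 the male change was -0.57. Egr2 is also an immediate early gene, induced within minutes in many cell types. On MAT male replicate 2 the immediate early genes Fos (4.71), Egr1 (6.01), Fosb (4.03) and Nr4a1 (7.30), named after their values were seen, were at their highest log2 signal of the 16 arrays. The part of such a response in the Egr2 values was not tested.

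Among the genes of non-myelinating and immature glia, Cdh19, a cadherin of Schwann cell precursors, had log2 signals of -2.82, -2.98, -2.96 and -2.77 on the MAT female arrays and -3.69, -3.81, -3.30 and -3.91 on the AGED female arrays. Every AGED female array was lower, and the change was -0.80 ± 0.32 (SE, adjusted p = 0.404), a 1.74-fold lower level. On the male arrays it read -2.91, -2.81, -2.86 and -3.15 in MAT and -2.52, -2.68, -4.54 and -3.30 in AGED mice, with AGED male replicate 3 far below the rest, and the male change of -0.33 became 0.10 without it. Scn7a, the sodium channel of non-myelinating Schwann cells, read -2.13, -2.59, -1.90 and -2.06 on the MAT male arrays and -1.47, -1.98, -2.26 and -2.17 on the AGED male arrays. On the female arrays it read -1.71, -2.02, -1.80 and -1.75 in MAT and -1.94, -2.67, -2.47 and -1.83 in AGED mice, and the groups overlapped in each sex. Its age changes of 0.20 ± 0.22 in males and -0.41 ± 0.22 in females differed by 0.61 ± 0.31 (SE, adjusted p = 0.547), the lowest p of the members for that difference.

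Ncam1, the adhesion molecule that non-myelinating Schwann cells and axons share, changed by -0.32 ± 0.21 in males and -0.41 ± 0.21 (SE) in females at its brightest probe. Another of its 3 probes was lower on every AGED than on every MAT array of both sexes. It spanned -0.85 to -0.57 in MAT males and -1.52 to -1.24 in AGED males, and -1.24 to -0.84 in MAT females and -1.78 to -1.31 in AGED females. When every probe was tested, this probe changed by -0.69 ± 0.13 (SE, adjusted p = 0.019) in males and -0.55 ± 0.13 (SE, adjusted p = 0.15) in females, under 2-fold in both, and the third by -0.17 ± 0.20 and -0.41 ± 0.20 (SE). L1cam, an adhesion molecule of unmyelinated fibres, changed by -0.14 ± 0.14 and 0.08 ± 0.14 (male and female, SE). Gfra3, the artemin receptor, changed by -0.09 ± 0.22 and -0.05 ± 0.22 (male and female, SE).

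The axonal genes differed between the sexes in their spread. Nefl, the light neurofilament subunit, had log2 signals of -0.66, -1.72, -1.29 and -1.74 on the MAT female arrays and -3.27, -2.47, -1.78 and -3.41 on the AGED female arrays. These did not overlap, although the closest arrays differed by only 0.04, and the change of -1.38 ± 1.36 (SE, adjusted p = 0.795) was 2.6-fold. On the male arrays Nefl read -1.41, -7.83, -4.56 and -1.65 in MAT and -4.19, -1.45, -7.57 and -1.62 in AGED mice. It was not well above background on MAT male replicate 2 and AGED male replicate 3, and its male standard deviation was 3.01 in MAT and 2.87 in AGED mice against 0.51 and 0.76 in females. The limma fit shares 1 spread over the 16 arrays, so the male spread sets the standard error of the female change.

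Nefm, the medium neurofilament subunit, read -3.79, -4.65, -4.48 and -4.70 on the MAT female arrays and -4.85, -5.14, -4.75 and -5.10 on the AGED female arrays (-0.55 ± 0.54, SE, adjusted p = 0.793). In males it was well above background on 2 of 4 arrays of each age. Tubb3, the neuronal beta-tubulin, read -1.23, -1.97, -1.45 and -2.08 on the MAT female arrays and -2.77, -2.32, -2.15 and -2.24 on the AGED female arrays (-0.69 ± 0.59, SE, adjusted p = 0.747). The gaps between the female groups were thus narrow, 0.05 for Nefm and 0.07 for Tubb3. In males Nefm and Tubb3 changed by 0.19 ± 0.54 and 0.02 ± 0.59 (SE).

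Gap43, the growth-cone protein of regrowing axons and of some Schwann cells, had log2 signals of -1.20, -2.45, -2.14 and -0.74 on the MAT male arrays and -1.15, -0.47, -0.62 and -0.55 on the AGED male arrays. AGED male replicate 1 lay within the MAT range and the other 3 above it. The change was 0.93 ± 0.33 (SE, adjusted p = 0.171), a 1.91-fold higher level, and was called with normexp background correction (1.00, adjusted p = 0.0323). In females it was 0.03 ± 0.33 (SE, adjusted p = 0.987), and the age changes differed by 0.90 ± 0.46 (SE, adjusted p = 0.556). Prph, the peripherin of peripheral neurons, changed by -0.08 ± 0.45 in males and -0.71 ± 0.45 in females. Uchl1, the neuronal deubiquitinase PGP9.5, changed by -0.62 ± 0.33 in males and -0.31 ± 0.33 (SE) in females.

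**Figure D4:**
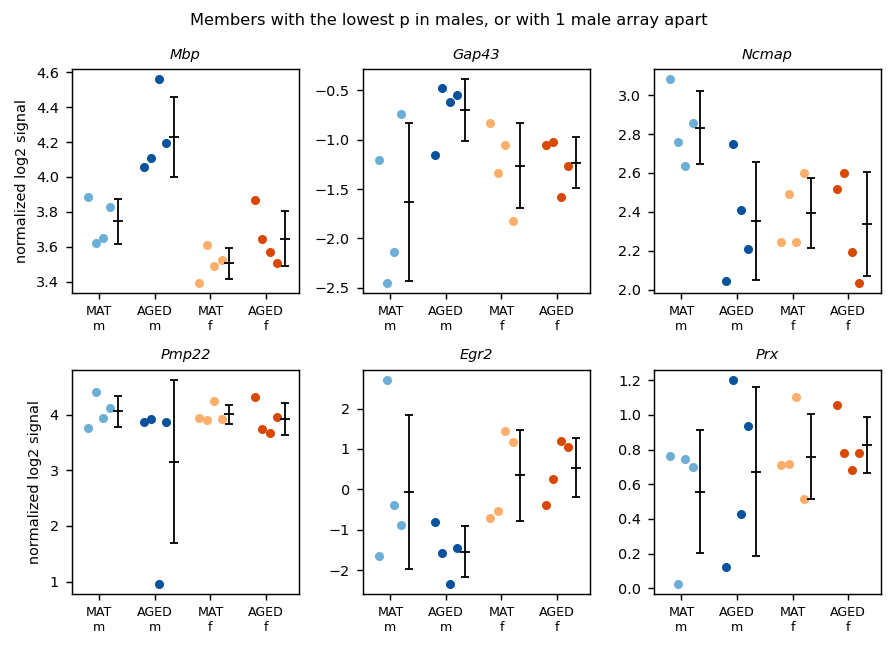
Normalised log2 signal of Mbp, Gap43, Ncmap, Pmp22, Egr2 and Prx on the 16 arrays (m for males, f for females), with the mean and SD of each group (n = 4) as bars. All 4 AGED male arrays lie above the MAT male arrays for the tested probe of Mbp, and 1 male array stands apart for Pmp22 (0.96) and Egr2 (2.70). For Prx, MAT male replicate 2 (0.03) lies apart from the other MAT males but near AGED male replicate 1 (0.12).

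The male spread of the axonal genes was shared with genes of other lists. Prph, Nefl, Nefm and Tubb3, 4 of the 6 axonal members, had their 2 lowest male arrays at MAT male replicate 2 and AGED male replicate 3, as did 3.88% of all genes. Scn7a did so too, 1 of 5 genes of non-myelinating and immature glia, and none of the 18 members tested in the myelin and regulator groups did. Of 18 further axon and nerve terminal genes, 2 did, namely Slc5a7, the choline transporter, and Vip, a neuropeptide. Of 6 adipocyte genes 5 did, namely Adipoq, Plin1, Cidec, Cfd and Lep, the last of which was well above background on no male array. Adipoq, for example, read -6.01 on MAT male replicate 2 and -6.28 on AGED male replicate 3, and between -2.53 and 0.89 on the other male arrays. How much of the axonal spread went with the fat in each dissected piece was not tested.

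**Figure D5:**
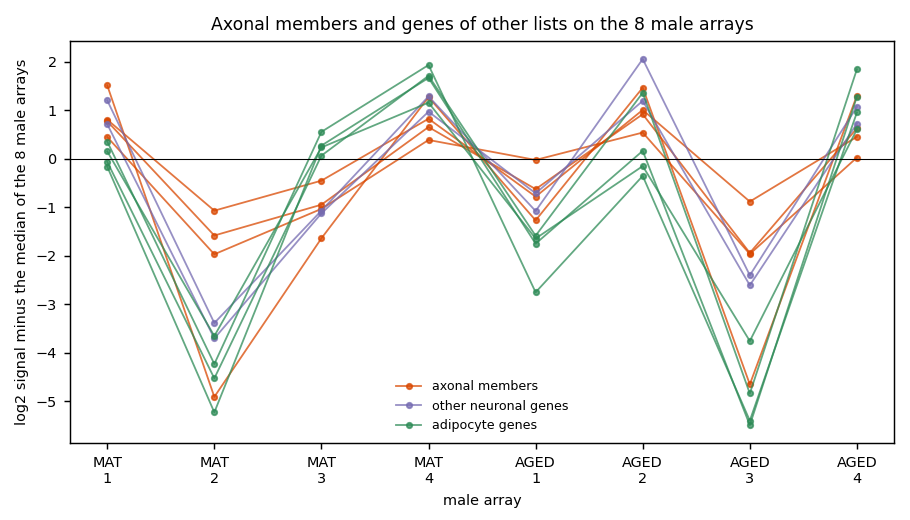
Log2 signal minus the median of the 8 male arrays for 4 axonal members, 2 other neuronal genes and 4 adipocyte genes, picked because their lowest 2 arrays coincide. Lines join the arrays of 1 gene only to guide the eye, and the arrays have no order. All lie low on MAT 2 and AGED 3, where Nefl deviated by -4.91 and -4.65.

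Without those 2 arrays, a choice made after the data were seen, again no member was called. In males Pou3f1 was still the only member with every AGED array below, and Mal joined Mbp above. With fewer arrays the groups are apart more easily for any gene. The share over all genes at this setting is not given, so the addition of Mal is not read as a result. The median over the members was then -0.08 in males.

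Other genes of the same pathways gave few calls. Of 20 further myelin and Schwann cell genes 19 were tested and none was called in an age comparison, with 13 of lower fitted level with age in each sex and medians of -0.12 in males and -0.11 in females. In females, 2 of these 19 (10.5%), Aspa and Col28a1, had every AGED array below every MAT array, beside 5.78% of all genes. With so few genes this count is not read as a result about the list. Col28a1, a collagen of Schwann cell basal lamina, had the lowest p in females (-1.38 ± 0.29, SE, adjusted p = 0.075), and Dhh, the Schwann cell hedgehog ligand, had a difference of the opposite sign (0.78 ± 0.23, SE, adjusted p = 0.25). Between the sexes in AGED mice Dhh was called, lower in males by a log2 difference of -1.11 ± 0.23 (SE, adjusted p = 0.0104). In males the lowest p-values belonged to Gjb1, the connexin of non-compact myelin (0.68 ± 0.18, SE, adjusted p = 0.076), Lama2, a basal lamina laminin (-0.67 ± 0.18, SE, adjusted p = 0.078), and Itga6, a laminin receptor (0.37 ± 0.15, SE, adjusted p = 0.23).

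Of 11 genes of the repair Schwann cell, the state taken after nerve injury, 10 were tested and none was called in an age comparison. Their medians were -0.17 in males and -0.08 in females. Sox2, a factor of immature Schwann cells, changed by 1.08 ± 0.33 (SE, adjusted p = 0.12) in males, and Nrg1, the neuregulin ligand of Erbb3, by -1.55 ± 0.51 (SE, adjusted p = 0.14). In females the difference of Nrg1 was 1.05 ± 0.51 (SE, adjusted p = 0.49). Between the sexes in AGED mice Nrg1 was called, lower in males by a log2 difference of -1.71 ± 0.51 (SE, adjusted p = 0.0477). Runx2 was well above background on no AGED male array, and its change is not read.

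Of 19 further axon and nerve terminal genes 18 were tested, and 2 were called in an age comparison, both lower in AGED males. Of all genes tested, 0.851% were called in males in either direction. Nefh, the heavy neurofilament subunit, read -0.60, -0.50, -0.65 and -0.01 on the MAT male arrays and -2.68, -1.30, -2.15 and -1.57 on the AGED male arrays (-1.49 ± 0.25, SE, adjusted p = 0.0093). Stmn2, a growth-associated tubulin-binding protein of neurons, read 1.76, 1.60, 1.16 and 1.70 in MAT and 0.11, 0.66, -0.03 and 1.16 in AGED males (-1.08 ± 0.24, SE, adjusted p = 0.036). Neither shared the low MAT male replicate 2 of Nefl and Tubb3. In females Nefh changed by -0.44 ± 0.25 and Stmn2 by -0.31 ± 0.24 (SE), and Snap25, a protein of transmitter release, had the lowest p of the list (-0.52 ± 0.14, SE, adjusted p = 0.18). The fitted level of the list was lower in 11 of 18 genes in males and 14 of 18 in females. In females 1 of the 18, Snap25, had every AGED array below every MAT array (5.56%), beside 5.78% of all genes.

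Markers of other cells were set beside these values, because several members are not restricted to Schwann cells. All 7 urothelial and all 6 smooth muscle genes, which define the labelled tissue, were well above background on all 16 arrays, as were Sox10 and S100b, which mark Schwann cells. Oligodendrocytes, which make central myelin, share Mbp, Mag, Cnp, Mal and Fa2h. Of 6 oligodendrocyte genes, Mobp, Opalin and Myrf were not tested, Olig2 was well above background on 4 of 16 arrays, and Mog and Ermn were so on all, with no gene of the list called. Melanocytes share Sox10. Of 5 melanocyte genes Tyrp1 was not tested, Dct was well above background on 5 arrays, and Mlana was called higher in AGED males (1.38 ± 0.32, SE, adjusted p = 0.042), and the summed log2 level of the list ran from -2.45 to -1.24 in MAT females and -2.37 to -1.69 in AGED females. The part of these cells in the member values was not tested.

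In females, where 9 members were apart, 6 of 6 adipocyte genes had a lower fitted level in AGED mice (median -0.95, none called), and their summed log2 level ran from 6.06 to 7.71 in MAT and 6.02 to 6.69 in AGED females. All 6 interferon response genes were higher in AGED females, 5 of them called, with summed log2 levels of 2.98 to 3.84 in MAT and 5.05 to 5.72 in AGED females. Urothelial genes summed to 8.92 to 9.11 and 8.81 to 9.20, and smooth muscle genes to 9.98 to 10.1 and 9.57 to 10.4, in MAT and AGED females, and none of them was called. Skeletal muscle genes were lower in 4 of 4 and fibroblast genes in 4 of 5 cases in each sex, and no gene of these lists or of the endothelial, macrophage, T cell or B and plasma cell lists was called with age. In males, S100a8 and S100a9, the 2 tested neutrophil genes, and Defb50, a defensin and the 1 tested gene listed for male accessory glands, were called higher. All 3 also had every AGED female array above every MAT female array, with no call (log2 differences of 1.12 for S100a8, 1.62 for S100a9 and 1.80 for Defb50, adjusted p = 0.436, 0.323 and 0.185). Because Defb50 was higher in females too, it is not read as a level of male gland tissue. The part of any of these lists in the member values was not tested.

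Differences between the sexes, male minus female, are given with the limit that sex and slide cannot be told apart. That of Gfra3 was 0.68 ± 0.22 (SE, adjusted p = 0.174) in MAT and 0.64 ± 0.22 (SE, adjusted p = 0.0744) in AGED mice, and that of Ncam1 0.57 ± 0.21 (SE, adjusted p = 0.237) and 0.66 ± 0.21 (SE, adjusted p = 0.0609). These Ncam1 values are of its brightest probe. Its dimmer probes differed by 0.03 ± 0.20 and 0.36 ± 0.13 in MAT mice, and by 0.26 ± 0.20 and 0.22 ± 0.13 (SE) in AGED mice. In AGED mice the male level of Mbp exceeded the female level by 0.58 ± 0.13 (SE, adjusted p = 0.0135), a 1.5-fold difference below the fold limit. All 4 AGED male arrays, from 4.05 to 4.56, were above the 4 AGED female arrays, from 3.50 to 3.87. These Mbp values are of its brightest probe, and its dimmer probes differed by 0.09 ± 0.55 and 0.15 ± 0.26 (SE) in AGED mice. For Egr2 the difference in AGED mice, male minus female, was -2.08 ± 0.77 (SE, adjusted p = 0.104), 4.23-fold in size and not called.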

How the data were processed

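The 16 bladder arrays were grouped by the age and sex in their labels. The authors extracted the scans with Agilent Feature Extraction (9.1 per the submitters' processing notes) and deposited an intensity per spot, background-subtracted but unscaled across arrays. The log2 table that the authors deposited was checked and holds these values, shifted per array and with every probe's median set to 0 (99.4% of values within 0.01, column medians -0.125 to 0.29).

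Log2 processed signals were scaled to each array's 75th percentile. Control spots and 399 outlier-flagged probe values were left out, and no spot was saturated. Probes had to be well above background on 4 or more of the 16 arrays, and a gene is its kept probe with the highest mean. Of 55681 probes 26582 were named through RefSeq accessions (GRCm38.p6, for names and promoters). The groups were compared in 1 limma 3.58.1 model (R 4.3.3, 12 residual degrees of freedom), with Benjamini-Hochberg adjustment over 26781 genes. Exact permutation tests were two-sided (scipy 1.17.1). Per-array values are given for members called, with groups that did not overlap, or among the 5 lowest p-values of an age comparison or of the difference, and for a few members singled out after their values were seen. In other lists, genes called in an age comparison and those with the lowest p-values are named. The values of 3 genes of the further lists are not reported here, and the counts leave them out. Members and lists were chosen with earlier results of these data known.

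On simulated arrays of the female comparison (26781 genes, 200 changed), the calls held 79 of 100 genes with a log2 change of 1.5 and 96 of 100 with 2.5, 0 of them reversed, and 3 unchanged genes. Smaller changes were not simulated. The number of arrays limits the precision, and p-values measure the spread between these mice. In all, 36 alternatives were run. Numbers in the labels do not pair the samples. The study's t-test is called the methods' t-test.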

Additional observations from a re-analysis of the deposited data

Results flagged for a closer look

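In 116 groups of 4 arrays (29 members in 4 groups), 6 held an array far from the other 3, measured as its gap to the nearest array over the group's range. Chance gives about 1 in 20 groups, and 5.17% were found. The shares of the range were 0.980 for Pmp22 on AGED male replicate 3, 0.958 for Prph on AGED female replicate 3, 0.915 for Prx on MAT male replicate 2, 0.863 for Pmp22 on MAT female replicate 3, 0.832 for Pou3f1 on AGED male replicate 1 and 0.832 for Uchl1 on MAT male replicate 1. Pmp22 read 0.96 on AGED male replicate 3 against 3.86 to 3.92 on the other AGED males, and its second probe read at least 0.74 on every AGED male array. Prph read -1.28 on AGED female replicate 3 against -2.06 to -2.03 on the other AGED females. Pou3f1 read -2.94 on AGED male replicate 1, the dimmest array, against -2.53 to -2.45 on the other AGED males.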

How the results depend on the processing

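No member was called in any comparison, and this held under median and quantile scaling, the log2 table of the authors, filters on all 16 and on at least 1 array, the floor, the mean of the kept probes, every probe tested, a variance trend, array weights, a fit of each sex alone and the methods' t-test after Benjamini-Hochberg adjustment. With normexp background correction, which moved the median of all genes in males to 0.12, 2 members were called in males (Gap43 and Ncmap, 1.00 and -1.47) and 1 in the difference of the age changes (Ncmap). With no filter on dim probes 1 was called in males and 1 between AGED males and females, Pmp2 in both cases, a gene at background on all arrays. At an unadjusted p with no fold limit the counts were 5 in males, 6 in females, 5 between MAT males and females and 4 between AGED males and females, and with the 2-fold limit 1 between AGED males and females (Egr2). With an adjusted p and no fold limit 1 was called between AGED males and females (Mbp). The methods' t-test, unadjusted, called 1 in females (Nefl) and 1 between AGED males and females (Egr2). Leaving out each array gave 0 to 0 calls for both age comparisons, the difference and MAT males against females, and 0 to 1 between AGED males and females (Egr2, without MAT male replicate 2). The causes were not tested.

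The count of members with every AGED array below every MAT array was 9 to 11 in females and 1 to 4 in males when each array was left out (4 without AGED male replicate 2, namely Gldn, Ncmap, Pou3f1 and S100b, and 2 without MAT male replicate 1, MAT male replicate 3 or AGED male replicate 4). Leaving out arrays can only keep or raise such counts, below or above, for any gene. The shares over all genes at these settings are not given, so the higher counts are not read as results. In females it was 6 to 11 over the other settings, without shares over all genes. It was lowest with the filter on all 16 arrays, which leaves Gldn, Nefl and Nefm untested. The count above was 1 to 2 in males and 0 to 1 in females when each array was left out. In males it was 0 with median scaling and with the mean of the kept probes, 2 with normexp, 2 with no filter and 2 without both MAT male replicate 2 and AGED male replicate 3, and in females it was 1 with no filter. The median over all members ran from -0.37 to -0.0056 in males and -0.21 to -0.12 in females when each array was left out. Of 447 recomputed changes of named members 444 kept direction and call, 2 were called (Gap43 and Ncmap with normexp), and Mbp in males turned to -0.20 with the mean of its probes. The labels share replicate numbers, but these do not pair the samples (correlations of same-numbered deviations -0.15 to 0.068), and with the replicate block 0 members were called in each comparison. Levels near background limit Gldn, Nefl and Nefm.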
